A study of Mus musculus with 2 samples.

Results

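The 33 genes described here act in the licensing, start and running of DNA replication in S phase, and were chosen by symbol, with no measured value in the rule. All 33 were found among the 32285 genes of the deposited tables. They were followed in white blood cells of mouse tumours grown under the skin from the melanoma line B16-F10, taken at day 14 and sorted as viable CD45+ cells. The tumour line of 1 group was labelled FDPS-knockout (FDPS makes farnesyl diphosphate in the mevalonate pathway), and that of the other, labelled WT with VC in its title, is called control here. The knockout is a property of the injected tumour line, whereas the cells sorted are those of the host. The labels give no treatment, and no age, sex or strain of the host mice. Each group had 3 tumours and gave 1 droplet single-cell RNA library, with no map from cells to tumours. There are thus 2 libraries and no replicate, so no test between groups was possible, no p-value is given, and every difference below is between these 2 libraries, in which group and library cannot be told apart. Paired values are given with the knockout library first and the control library second. Intervals are 95% intervals (exact Poisson for summed molecules, Clopper-Pearson for shares of cells) and cover counting error only.

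Before a cell copies its DNA, the proteins encoded by Mcm2 to Mcm7 are loaded as a ring-shaped helicase onto replication origins by Cdc6 and Cdt1. Cyclin E, encoded by Ccne1 and Ccne2, and the transcription factor E2f1 take part in entry into S phase, where Cdc45 and the GINS complex (with Gins2) switch the helicase on. Primase and the polymerases then copy both strands on the sliding clamp Pcna, while Tyms, Rrm1, Rrm2, Tk1 and Dut keep up the supply of nucleotides. In tumours these transcripts mark immune cells that divide in place, such as activated CD8 T cells, and they are low in resting or terminally mature cells.

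Transcription of many of these genes in late G1 is known to depend on E2F factors, so the promoter windows were searched for 2 E2F core motifs, TTTCCCGC and TTTGGCGC, on both strands. RefSeq windows (GRCm38.p6, from 250 bases before to 50 bases after each annotated start) were found for 28 of the 33 genes. They were not found for Mcm4, Gins2, Pole, Rfc2 and Ccne2. An E2F motif was present in 9 of the 28 genes (32.1%), namely Mcm3, Mcm5, Mcm6, Mcm7, Cdc6, Cdt1, Pola1, Hells and Pclaf. The same letters were present in 1.80% of all 27025 genes with a window, in 3.39% of genes with a window at least as rich in G and C as the median of the 28 (61.3%), and in 0 of 25 genes of mitosis and G2. They were also present in 15 of 38 other replication genes (39.5%), a wider list of the pathway. The letters were therefore not particular to the genes described here. Of the 9 genes, 6 encode parts of the licensing step. The stretches of 4 genes outside annotated exons are printed 5′ to 3′ on the strand of the gene, with the E2F letters in capitals, to show that the core stands alone in 3 of them and is repeated in Mcm6. The Mcm5 stretch is chr8:75109330-75109397 (plus strand), that of Mcm6 chr1:128359715-128359845 (minus strand), that of Cdc6 chr11:98907983-98908050 (plus strand) and that of Pola1 chrX:93632256-93632323 (minus strand). They end 112, 10, 101 and 101 bases before the RefSeq start site, and that of Cdc6 lies within the GENCODE span of its own gene.
Mcm5: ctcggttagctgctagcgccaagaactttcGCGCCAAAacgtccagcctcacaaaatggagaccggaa
Mcm6: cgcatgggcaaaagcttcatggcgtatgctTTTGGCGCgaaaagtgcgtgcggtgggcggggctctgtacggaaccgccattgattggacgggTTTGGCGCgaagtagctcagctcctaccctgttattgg
Cdc6: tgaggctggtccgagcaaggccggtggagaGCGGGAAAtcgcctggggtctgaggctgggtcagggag
Pola1: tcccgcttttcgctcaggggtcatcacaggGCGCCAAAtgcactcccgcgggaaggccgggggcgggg
In Mcm5, Cdc6 and Pola1 the capitals are the motif as it reads on the opposite strand. The CHR motifs TTTGAA and TTCGAA, which are known from promoters of mitotic genes, were present in 4 of the 28 genes (14.3%), in 20 of 25 mitosis and G2 genes (80.0%) and in 21.7% of all genes. The CCAAT motif of NF-Y was present in 53.6%, 80.0% and 41.1%. Among genes with a window as rich in G and C as above, CHR motifs were present in 6.97% and CCAAT in 32.6%. The CHR share of the 28 genes rests on 4 genes and lay between those of all genes and of genes rich in G and C. The windows of the latter had a median of 67.7% G and C, above the 61.3% of the 28, and so are not matched to them. In the other replication genes CHR motifs were present in 34.2% and CCAAT in 65.8%. A match is a description of letters and not of binding, and nothing was measured at these promoters here.

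Each cell was placed in a class by its own marker transcripts, none of which is a replication or mitosis gene. After filtering, 8062 knockout and 8595 control cells remained, of which 17.8% and 16.3% met no class. Before filtering, the median barcode held 10732.5 and 12252 UMIs (unique molecular identifiers, each standing for 1 captured transcript). The libraries shared 30 cell barcodes. The defining markers of every class described were present in both libraries, and 18 knockout and 420 control cells were gated as melanoma cells in spite of the CD45 sort. Free RNA was estimated at 1.80% to 7.95% of the UMIs of a class. Levels are in CPM, the UMIs of a gene scaled by all UMIs summed over the class, for classes of 50 cells or more per library, and differences are given for classes of 100 or more.

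In both libraries the CD8 T cells held the highest summed level of the 33 genes, and monocytes or neutrophils the lowest. The summed level in CD8 T cells was 2839 CPM (2821 to 2857) against 3664 CPM (3647 to 3681). Type 1 conventional dendritic cells (cDC1, which take up and present tumour antigen to CD8 T cells) held 1449 (1422 to 1476) and 1862 (1818 to 1906). Macrophages held 512 (495 to 529) and 1346 (1337 to 1355). Neutrophils, short-lived cells that no longer divide, held 190.1 (152 to 235) and 381 (330.2 to 438), the latter above the 315 (304 to 327) of control monocytes. Gene by gene, the highest class was CD8 T for 32 of 33 knockout values and 26 of 33 control values. The exception in both was E2f1, which was highest in cDC1, at 22.0 CPM (18.8 to 25.6) and 35.6 CPM (29.8 to 42.2). In the control library regulatory T cells were highest for 3 genes and T cells of unresolved subset for 3 more.

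The share of cells high in these transcripts was taken after each cell had been thinned to 3000 UMIs, as the share with at least 5 UMIs of the 33 genes. It was 41.2% (39.0 to 43.5) of 1897 knockout and 63.1% (60.8 to 65.4) of 1717 control CD8 T cells. It was 4.07% (2.50 to 6.21) of 492 and 21.0% (19.5 to 22.6) of 2652 macrophages, and 20.3% (16.2 to 24.96) of 349 and 35.6% (28.5 to 43.2) of 174 cDC1. These intervals do not overlap. Before thinning the same shares were 82.9% and 91.3% in CD8 T cells, 42.4% and 74.5% in macrophages and 60.6% and 70.7% in cDC1. In cells that rarely divide the thinned share was low: 0 of 76 knockout neutrophils (upper end 4.74%, or 3.95% when a count of 0 is taken to allow 3 cells), 1.98% (0.241 to 6.97) of 101 control neutrophils, and 3.45% (0.947 to 8.59) and 5.56% (2.57 to 10.3) of mature dendritic cells. The median depth before thinning was 4923 and 4361.5 UMIs in neutrophils, 14436 and 13108 in mature dendritic cells, 13418.5 and 22569.5 in CD8 T cells, and 10406.5 and 19266 in macrophages.

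**Figure D1:**
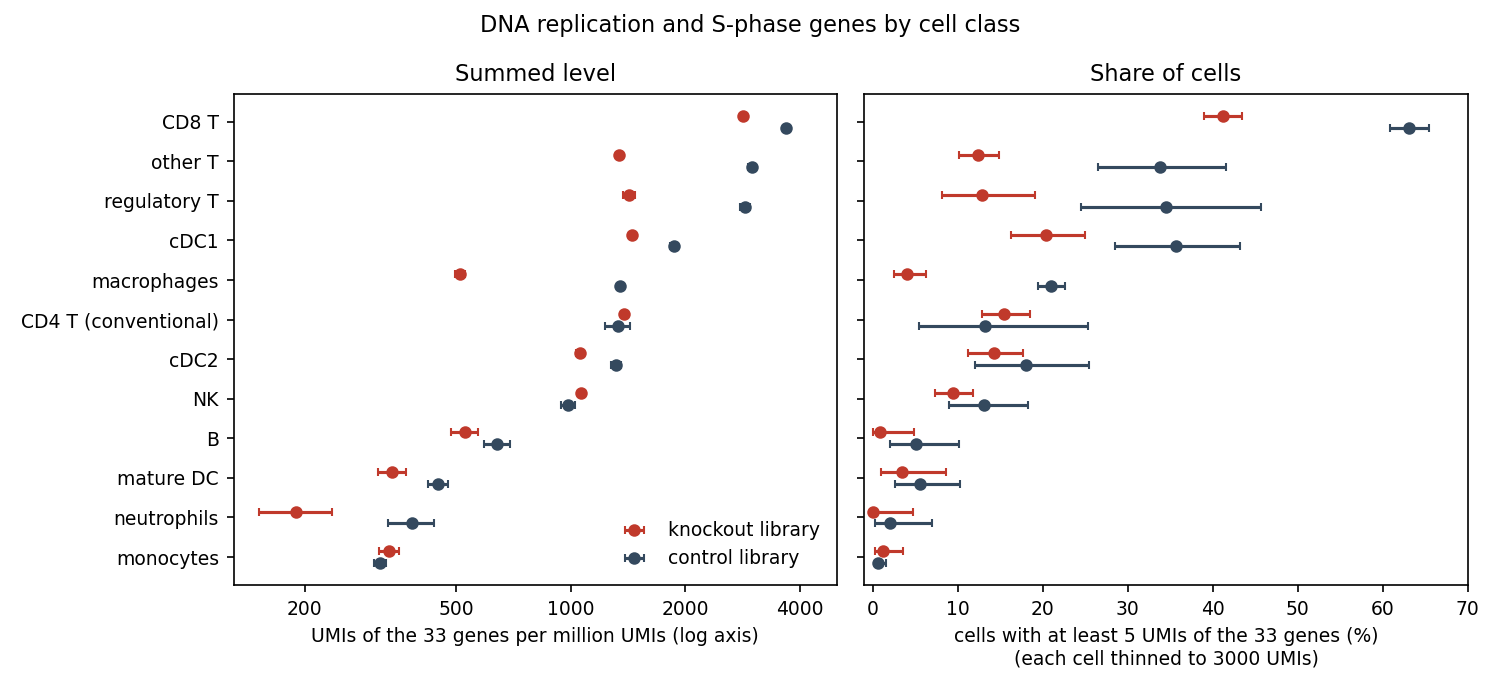
The left panel plots the summed level of the 33 genes in CPM (log axis) for 12 cell classes, and the right panel the share of cells with at least 5 of their UMIs after thinning to 3000 UMIs (percent). Points are single libraries and bars are 95% counting intervals; the gap between libraries in macrophages (512 against 1346 CPM) stands beside a near-equal level in monocytes (333 against 315).

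In CD8 T cells, which kill tumour cells and divide after meeting antigen, 30 of the 33 genes had a lower level in the knockout library, while 39.5% of all 8223 genes tested were lower. The summed level was 0.775 times that of the control library (0.769 to 0.781). The median difference of the 33 genes was -0.29 on the log2 scale (of CPM plus 5, knockout over control), beside 0.14 for all genes tested. A gene was called higher or lower past 1.5-fold, a rule of size and not a test. By it 9 of 33 genes were lower and 0 higher, and of all genes 7.44% were lower and 17.7% higher.

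The nucleotide genes were among the lowest in CD8 T cells. Dut, which removes dUTP so that uracil is kept out of DNA (ENSMUSG00000027203, chromosome 2, 125247190 to 125258608), was at 319 CPM (313 to 325) against 569 CPM (562 to 576). The log2 difference was -0.82, and the intervals are far apart. Tyms, the thymidylate synthase, was at 60.0 CPM (57.4 to 62.6) and 112.3 CPM (109.4 to 115.4), a difference of -0.85, the largest of the 33 in this class. Rrm2, the subunit of ribonucleotide reductase made in S phase, differed by -0.74, and Tk1, the thymidine kinase of dividing cells, by -0.63. Rrm1, the other reductase subunit, differed by -0.17, and Ung, the glycosylase that cuts uracil out of DNA, by 0.01. As a group these 6 genes were at 627 and 1024 CPM, a ratio of 0.612 (0.602 to 0.622). Dut alone gave 319 and 569 CPM of these sums, and the ratio was not taken without it.

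The 8 licensing transcripts summed to 614 and 680 CPM, a ratio of 0.903 (0.887 to 0.919), and none passed 1.5-fold. The ratio was 0.844 (0.827 to 0.861) without Mcm6. For polymerases, clamp and loader the ratio was 0.898 (0.884 to 0.913), and without Pola1, which was higher in the knockout library, the other 6 genes gave 0.760 (0.746 to 0.775). Both genes were left out after their values had been seen. Mcm6, a subunit of the helicase ring, was at 179.9 CPM (175.4 to 184.4) against 165.8 CPM (162.2 to 169.5), a log2 difference of 0.11, which is below the 0.14 of the median gene in this class. The other licensing genes differed by between -0.38 (Mcm7) and -0.08 (Mcm2). The helicase activators Cdc45 (-0.65) and Gins2 (-0.62) were both called lower, at 0.596 times the control level together (0.561 to 0.633).

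Among the genes of the copying machinery, Rfc4, a subunit of the clamp loader, was lower at 37.7 and 63.9 CPM (log2 difference -0.69). Fen1, which trims Okazaki fragments on the lagging strand, was lower at 34.1 and 56.5 CPM (-0.65). Pcna, the sliding clamp, was at 219.8 CPM (214.9 to 224.8) and 264 CPM (260 to 269), and Lig1, which seals the fragments, differed by -0.23. Pola1, the catalytic subunit of the polymerase that starts each strand, went the other way, at 244 CPM (239 to 249.7) against 174 CPM (170.3 to 177.8). Its log2 difference of 0.48 was the highest of the 33 and did not pass 1.5-fold. Of the chromatin genes, Pclaf, a partner of the clamp (ENSMUSG00000040204, chromosome 9, 65890237 to 65903266), was called lower, at 294 CPM (288 to 299.7) and 448 CPM (442 to 454). Slbp, which binds histone messages, Hells, a chromatin remodeller, Uhrf1, which takes part in copying DNA methylation, and Chaf1b, a histone chaperone, differed by -0.10, -0.11, -0.31 and -0.39. The cyclins E and E2f1 differed by between -0.30 and -0.11.

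Gene length moved with these differences. Between the libraries, the genes of shortest genomic span (lowest of 4 equal groups) had a median log2 difference of -0.26 in CD8 T cells and those of longest span 0.55, and the same order held in all 9 classes compared. Of the 33 genes 12 lay in the shortest group and 1, Pola1 (ENSMUSG00000006678, chromosome X, 93304767 to 93632155), in the longest. When the median of genes of like span was taken off, 4 genes were lower past 1.5-fold in CD8 T cells: Tyms (-0.83), Cdc45 (-0.83) and Dut (-0.69), which were among the 9 above, and Rfc2 (-0.65), a clamp loader subunit that was not. Pola1 was then at -0.16 and Mcm6 at -0.07, so neither was higher by this measure, and Ung (0.26) had the highest value. Other transcripts also differed between the CD8 gates: macrophage markers summed to 24.5 and 118 CPM and melanoma markers to 12.9 and 80.1 CPM, with 0 of 7 genes of either list absent. Their part in the result was not tested.

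**Figure D2:**
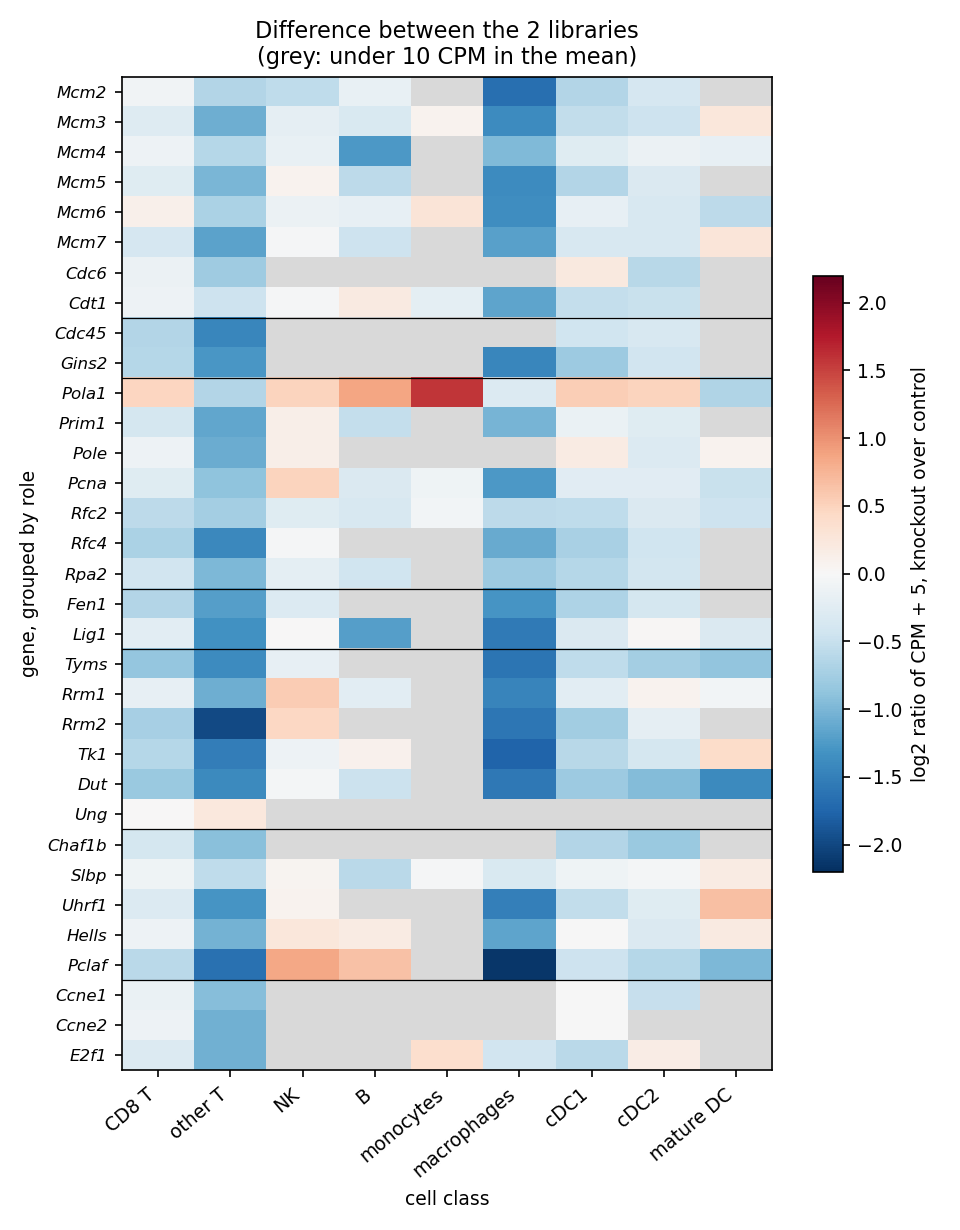
Colours give the log2 ratio of CPM plus 5, knockout library over control library, for each of the 33 genes (rows, grouped by role) in 9 cell classes (columns), and grey marks genes under 10 CPM in the mean of both libraries. T cells of unresolved subset are blue in nearly all rows and macrophages in all 26 rows that are not grey, while Pola1 is red in 6 of the 9 columns.

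Macrophages, tissue phagocytes gated here by complement C1q and related genes, showed the lowest ratio of the 12 classes. All 33 genes had a lower level in the knockout library, as had 48.4% of all 8384 genes tested in macrophages. The summed level was 2.63-fold lower (2.55 to 2.72). Of the 33 genes, 26 reached 10 CPM in the mean, and 22 of these were called lower and 0 higher. By the same rule of 1.5-fold, 16.9% of all genes tested in macrophages were called lower and 17.7% higher. The 7 genes under the limit were Cdc6, Cdc45, Pole, Ung, Chaf1b, Ccne1 and Ccne2, and without the limit 28 of 33 were called lower. Since a gene can pass the limit through the control library alone, the count over those that passed says less than the values.

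Pclaf was at 20.4 CPM (17.2 to 24.0) against 106.4 CPM (103.9 to 109.0), a log2 difference of -2.14 and the largest of the list. Tk1 was at 11.7 CPM (9.34 to 14.5) and 51.5 CPM (49.7 to 53.3), or -1.76. Mcm2 was at 6.5 CPM (4.76 to 8.67) and 31.3 CPM (29.9 to 32.7), or -1.66. The nucleotide genes stood lowest as a group, with a ratio of 0.252 (0.227 to 0.278), beside 0.261 (0.199 to 0.338) for the helicase activators, 0.336 (0.311 to 0.362) for licensing, 0.286 (0.243 to 0.334) for the joining of Okazaki fragments and 0.502 (0.476 to 0.528) for polymerases, clamp and loader (0.432, 0.406 to 0.459, without Pola1). Unlike in CD8 T cells, every licensing gene that reached the limit was called lower, from -1.66 (Mcm2) to -0.97 (Mcm4). Pcna was at 91.3 CPM (84.4 to 98.6) and 225 CPM (221 to 229). The 4 genes within 1.5-fold were Pola1 (-0.30), Slbp (-0.34), E2f1 (-0.42) and Rfc2 (-0.57). Even these were lower, with intervals of the ratio that ended below 1.

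Monocytes, the blood-derived cells from which many tumour macrophages come, did not share this gap. Their summed level was 333 CPM (313 to 353) and 315 CPM (304 to 327), a ratio of 1.06 (0.984 to 1.13). Of 8 genes that reached the limit, Pola1 was called higher, at 37.9 CPM (31.5 to 45.2) and 9.46 CPM (7.60 to 11.6), and 0 lower, beside 16.8% higher and 8.71% lower of all genes. The share of high cells was 1.23% (0.255 to 3.57) and 0.647% (0.210 to 1.503). The line between monocytes and macrophages was therefore also removed, a choice made after seeing the data: the joint class held 456 and 1210 CPM (ratio 0.377, 0.366 to 0.388), with 3.13% and 16.4% of cells high.

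The macrophages of the 2 libraries differed in other transcripts, and the replication genes moved with some of them. Of control macrophages with a UMI of Spp1, the osteopontin gene, 8.71% (6.68 to 11.1) were high in replication UMIs, and of those without 25.1% (23.2 to 27.1). With a UMI of the monocyte gene Ly6c2 the share was 6.47% (4.44 to 9.06), and without 24.2% (22.4 to 26.1). In knockout macrophages no such split exceeded 6.43%, which was the share without a UMI of the mannose receptor Mrc1 (2.98 to 11.9). Cells with a UMI of the scavenger receptor Cd163 (78 knockout and 24 control) had shares of 2.56% (0.312 to 8.96) and 29.2% (12.6 to 51.1). Melanoma markers summed to 605 and 506 CPM in these macrophages, with 0 of 7 genes absent. Control macrophages without a UMI of them were high more often (27.1%, 23.8 to 30.6) than those with one (18.9%, 17.2 to 20.7). Markers of monocytes summed to 1646 and 641 CPM and those of CD8 T cells to 78.0 and 28.4 CPM, and their part in the result was not tested. When each cell took the class of its cluster instead of its own gate, the macrophage gap was smaller, with a log2 ratio of the summed level of -0.87 in place of -1.40.

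**Figure D3:**
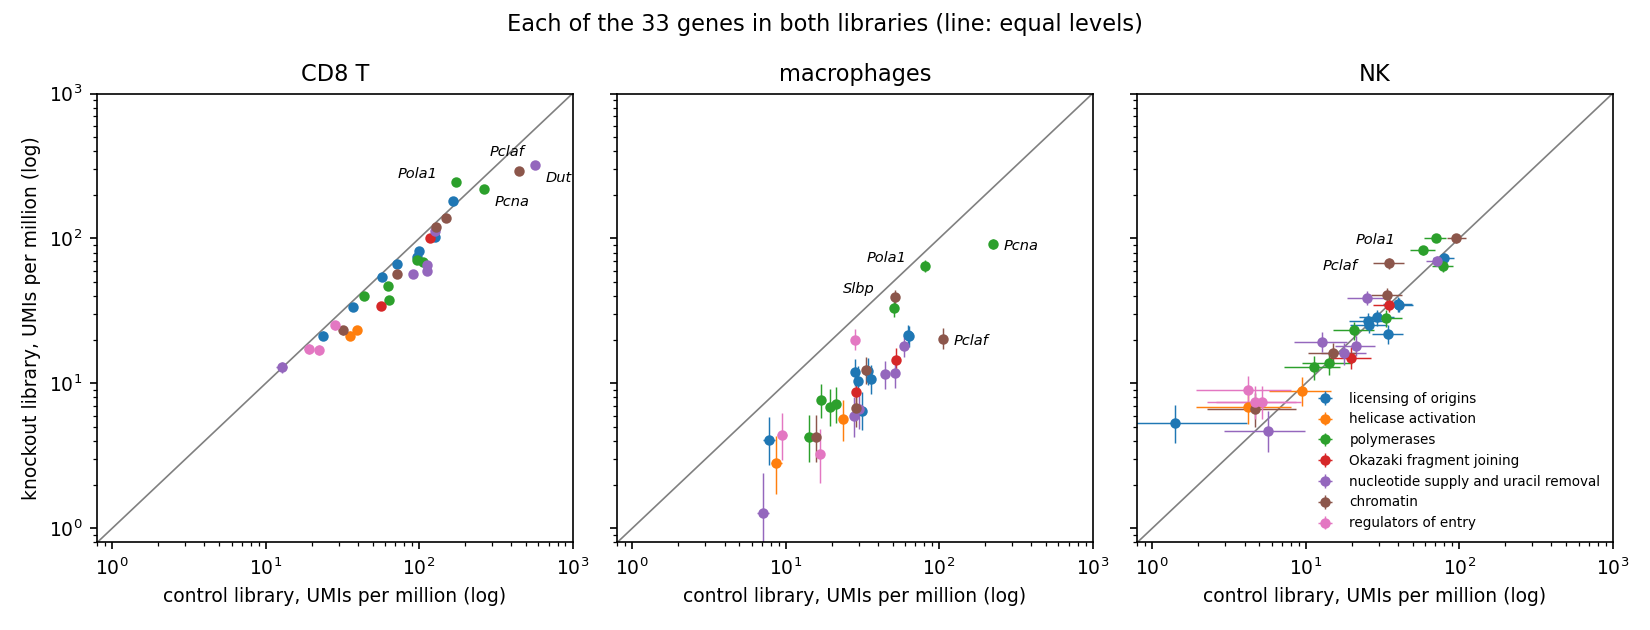
Each point is 1 of the 33 genes, with its level in the control library on the x axis and in the knockout library on the y axis (CPM, log axes), coloured by role, with 95% counting intervals. In CD8 T cells most points lie just under the line of equal levels with Pola1 and Mcm6 above it, in macrophages all 33 lie under it, and in NK cells they lie on both sides.

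The conventional dendritic cells showed smaller gaps. In cDC1 the summed level was 0.778 times the control level (0.755 to 0.802). There 30 of 33 genes had a lower level in the knockout library, while 43.1% of all 8349 genes tested did. Of the 32 that reached the limit 11 were called lower and 0 higher, beside 6.08% lower and 11.5% higher of all genes. Gins2 was at 11.6 CPM (9.32 to 14.3) and 24.0 CPM (19.3 to 29.5), or -0.80, and Dut at 62.6 CPM (57.1 to 68.5) and 112.7 CPM (102.1 to 124), also -0.80. The others called lower were Rrm2, Rfc4, Fen1, Mcm2, Mcm5, Chaf1b, Rpa2, Tk1 and E2f1. Cdc6 (0.22) and Pole, the leading-strand polymerase (0.19), were not lower, and Pola1 (0.53) again had the highest value. After genes of like span were taken off 3 genes stayed past 1.5-fold, namely Chaf1b (-0.64), Gins2 (-0.63) and Dut (-0.62). Pola1 was then at 0.06, and Cdc6 (0.30) had the highest value. Markers of mature dendritic cells summed to 127 and 21.0 CPM in cDC1, with 0 of 6 absent, and macrophage markers to 145 and 313 CPM, with 0 of 7 absent. Their part in the result was not tested.

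In cDC2, which present antigen mainly to CD4 T cells, the summed level was 1055 CPM (1034 to 1077) and 1314 CPM (1273 to 1357), a ratio of 0.803 (0.773 to 0.834). Of 31 genes that reached the limit 5 were called lower, namely Dut (-0.96), Chaf1b (-0.82), Tyms (-0.75), Pclaf (-0.63) and Cdc6 (-0.61), beside 8.03% of all genes. The shares of high cells, 14.2% (11.2 to 17.7) and 18.0% (12.0 to 25.4), had overlapping intervals. With cells classed by cluster the cDC2 summed ratio was 0.02 on the log2 scale and 0 genes were called lower, so this gap was not seen with that choice of class.

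The T cells that met neither the CD8 nor a CD4 gate had the most genes called lower. Their summed level was 1337 CPM (1315 to 1360) over 859 cells against 2985 CPM (2917 to 3054) over 199 cells, and 30 of 33 genes were called lower, beside 13.1% of all genes. Rrm2 was at 22.0 CPM (19.2 to 25.03) and 101.3 CPM (89.1 to 114.7), or -1.98. Ung (0.23) was the exception in direction. In these T cells macrophage markers summed to 33.4 and 219 CPM and melanoma markers to 18.8 and 115 CPM, with 0 of 7 genes of either list absent, and their part in the result was not tested. This class is what the gates left over and need not hold the same cells in each library: with classes taken from clusters, the number called lower was 9 and the log2 ratio of the sum -0.55. Regulatory T cells (165 and 84 cells, too few for calls), which restrain other T cells, were at 1422 CPM (1371 to 1473) and 2862 CPM (2777 to 2949), and all 33 genes were lower in the knockout library. Conventional CD4 T cells (676 and 55 cells) were at 1381 CPM (1357 to 1406) and 1327 CPM (1228 to 1431), with overlapping intervals, and 18 genes were lower and 15 higher. The share of all genes with a lower level was not taken for regulatory or conventional CD4 T cells.

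NK cells, innate lymphocytes that kill without antigen receptors, did not have the gap of the CD8 T cells. Their summed level was 1065 CPM (1043 to 1087) against 984 CPM (943 to 1027), a ratio of 1.08 (1.03 to 1.14). Of 25 genes that reached the limit 1 was called higher, Pclaf, at 67.3 CPM (61.9 to 73.1) and 34.9 CPM (27.4 to 43.8), and 0 lower, beside 6.85% higher and 4.6% lower of all genes. Rrm1 (0.55), Pcna (0.50), Pola1 (0.48) and Rrm2 (0.46) were next among those genes, and Mcm2 (-0.56) was lowest. The share of high cells went the other way, at 9.37% (7.30 to 11.8) and 13.1% (8.93 to 18.2), with overlapping intervals. The direction of the NK sum depended on single choices, with a log2 ratio of 0.11 as given, -0.14 with no doublets removed, -0.12 with each cell weighted equally and -0.04 with classes from clusters. Melanoma markers summed to 24.4 and 226 CPM in NK cells and macrophage markers to 27.1 and 239 CPM, with 0 of 7 genes absent from either list, and their part was not tested.

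The remaining classes had low levels and few calls. B cells summed to 527 CPM (485 to 572) and 640.0 CPM (590.1 to 693), with Mcm4, Lig1 and Slbp lower and Pola1 and Pclaf higher among 19 genes that reached the limit, beside 8.77% lower and 15.8% higher of all genes. Each of these B cell values rests on at most 77 UMIs a library. Mature dendritic cells summed to 339 CPM (312 to 369) and 449 CPM (422 to 477), with Dut, Pclaf, Tyms and Pola1 lower and Uhrf1 higher among 17 genes, beside 14.1% lower and 21.5% higher of all genes. Across the 9 classes compared, Dut was called lower in 6 of the 8 in which it reached the limit, Tyms in 5 of 7 and Pclaf in 5 of 8, and Slbp in 1 of 9. The share of all genes called lower in a single class ran from 4.6% (NK cells) to 16.9% (macrophages).

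The number of replication UMIs per cell showed where in each class the libraries differed. The median thinned CD8 T cell held 3 and 7 replication UMIs, and the 90th percentile was 17 and 20. At 20 or more UMIs stood 7.06% of knockout and 10.3% of control CD8 T cells. In macrophages the median was 1 and 2 UMIs and the 90th percentile 3 and 9. At 10 or more UMIs stood 1.63% of knockout and 9.05% of control macrophages. For single genes, 24.7% (22.8 to 26.7) of knockout and 45.4% (43.1 to 47.8) of control CD8 T cells held a UMI of Pclaf after thinning, and 2.85% (1.56 to 4.73) and 13.6% (12.3 to 14.9) of macrophages. In mature dendritic cells these Pclaf shares were 3.45% (0.947 to 8.59) and 7.41% (3.89 to 12.6), with intervals that overlap that of knockout macrophages. The Pclaf UMIs of knockout macrophages were unevenly spread, at 186 CPM (108 UMIs) in cells with at least 3 UMIs of mitosis and G2 genes after thinning and 4.67 CPM (22 UMIs) in cells with 0. Slbp was found in 26.5% (24.5 to 28.6) and 27.3% (25.2 to 29.5) of CD8 T cells, a difference within the counting intervals. The 5-UMI limit itself is a choice, with 132 knockout and 100 control CD8 T cells at 4 UMIs and 110 and 81 at 5.

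**Figure D4:**
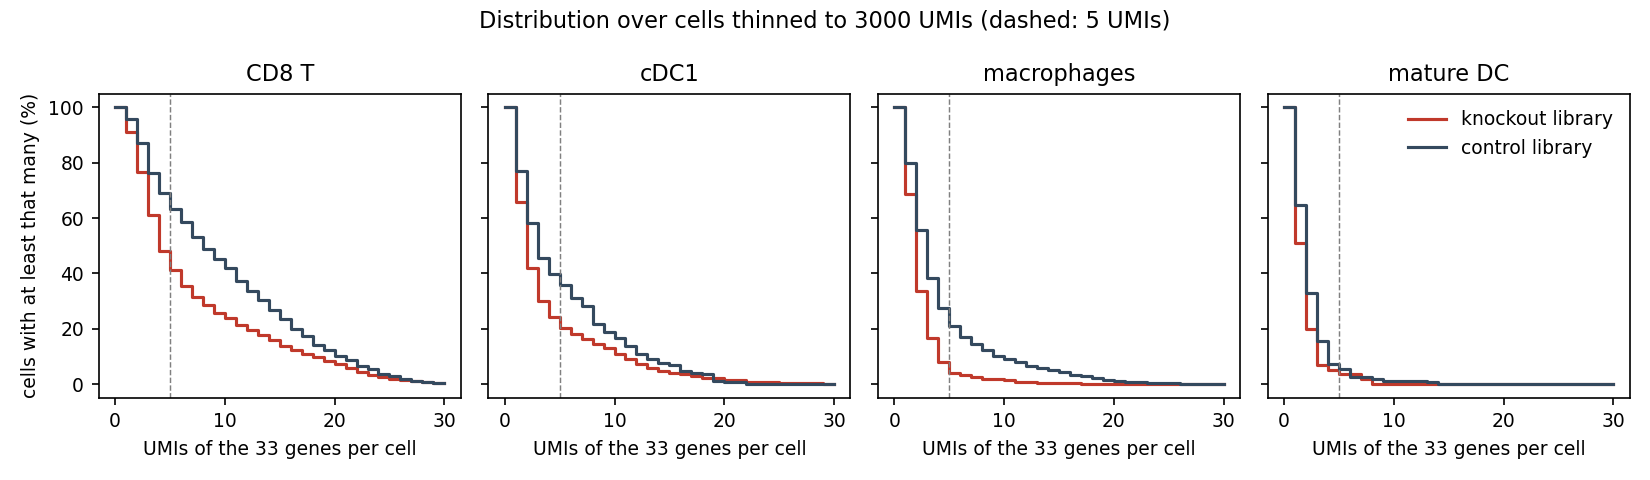
The y axis gives the percent of cells with at least the number of replication UMIs on the x axis, after each cell was thinned to 3000 UMIs, in 4 cell classes, with the limit of 5 UMIs dashed. The curves of CD8 T cells, cDC1 and macrophages are apart at 5 UMIs (41.2% and 63.1% in CD8 T cells), while those of mature dendritic cells stay low (3.45% and 5.56%).

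Cells were also split by 29 genes of mitosis and G2, a list that shares no gene with the 33. A UMI count of at least 3 from that list marked 32.2% (30.1 to 34.3) and 52.4% (49.96 to 54.7) of the CD8 T cells of each library, 6.10% (4.15 to 8.59) and 20.5% (19.0 to 22.1) of macrophages, and 21.2% (17.0 to 25.9) and 25.3% (19.0 to 32.4) of cDC1. Within CD8 T cells so marked, the replication level was 4199 CPM (4168 to 4229) and 4474 CPM (4451 to 4497), a ratio of 0.938 (0.930 to 0.947). Within those with 0 UMIs of the mitosis list it was 1098 CPM (1078 to 1118) and 1620 CPM (1591 to 1650), a ratio of 0.677 (0.660 to 0.695). The mitosis UMIs were counted after thinning, which discards UMIs, so a cell with 0 can still have held mitotic transcripts. The part of such cells in the ratio at 0 was not tested. By these counts the libraries were closer in CD8 T cells with at least 3 mitosis UMIs than in those with 0. The same order held in cDC1, with ratios of 0.875 (0.841 to 0.910) and 0.625 (0.585 to 0.668). In macrophages the ratio was 0.659 (0.618 to 0.703) in the 30 knockout and 543 control cells with at least 3 and 0.553 (0.527 to 0.580) in those with 0. In the 131 and 844 macrophages with 1 to 2 mitosis UMIs the ratio was below both, at 0.402 (0.373 to 0.432). In NK cells it was 1.57 (1.40 to 1.76) over 32 and 11 cells and 0.696 (0.652 to 0.743) in cells with 0.

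The role groups did not move alike in CD8 T cells with at least 3 mitosis UMIs. Licensing genes were at 813 CPM (799.9 to 827) against 783 CPM (773 to 793), and polymerases, clamp and loader at 1028 CPM (1013 to 1044) and 959 CPM (948 to 970). Each of these sums was higher in the knockout library, but not without 1 of its genes. Pola1 was at 354 and 208 CPM, and without it the other 6 genes of its group were lower, at 674 and 751 CPM (ratio 0.897, 0.878 to 0.917). Mcm6 was at 212 and 180 CPM, and without it the other 7 licensing genes were at 602 and 603 CPM (ratio 0.997, 0.974 to 1.02). Nucleotide genes summed to 974 CPM (959 to 989) and 1270 CPM (1258 to 1283), and helicase activators to 70.6 CPM (66.7 to 74.7) and 96.1 CPM (92.7 to 99.5), both lower. Within the nucleotide sum Dut alone was at 466 and 671 CPM, and Tyms, Rrm2 and Tk1 were lower too. Rrm1 (186 and 166 CPM) and Ung (13.7 and 12.5 CPM) were higher. The nucleotide sum was not taken without Dut. In cDC1 with at least 3 mitosis UMIs the nucleotide sum was likewise lower, at 515 CPM (487 to 544) and 774 CPM (725 to 825). Licensing genes there were at 463 CPM (437 to 491) and 488 CPM (449.6 to 529).

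**Figure D5:**
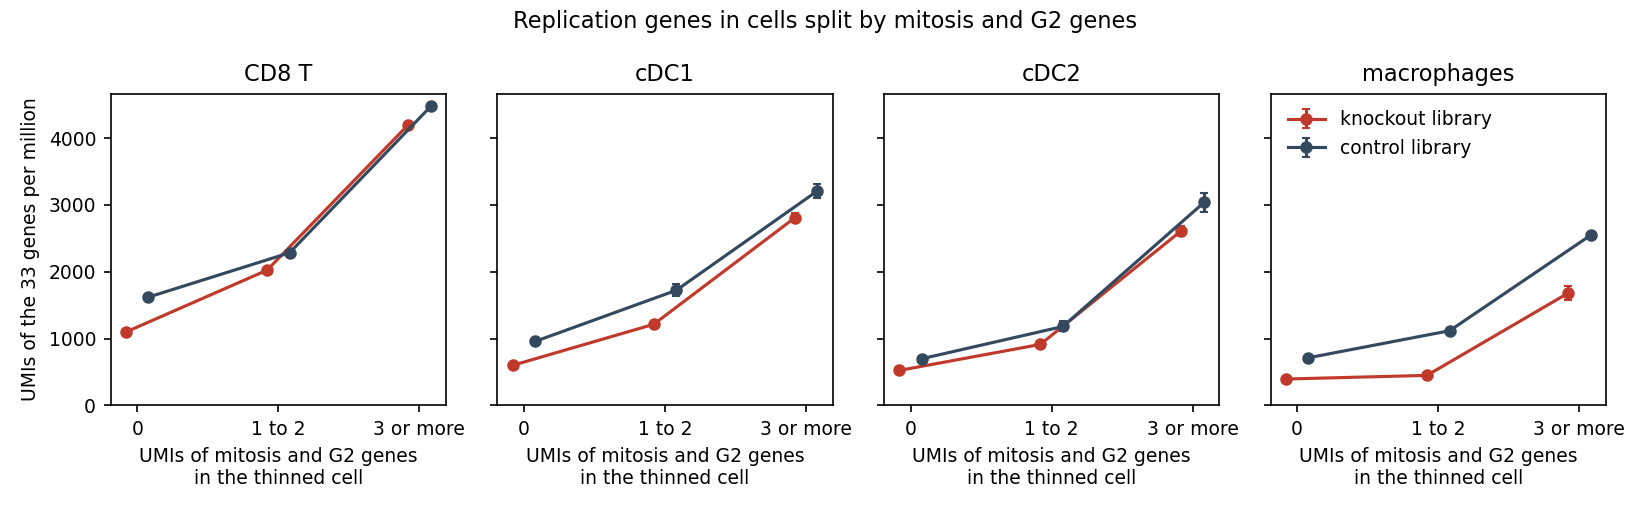
Points give the summed level of the 33 replication genes (CPM, y axis) in cells with 0, 1 to 2, or at least 3 UMIs of 29 mitosis and G2 genes after thinning (x axis), with 95% counting intervals, for 4 cell classes. In CD8 T cells the ratio of knockout to control is 0.677, 0.886 and 0.938 over these steps (4199 and 4474 CPM at the last). Control macrophages lie above knockout macrophages at every step.

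The single genes followed mitotic transcripts to very different degrees. In control CD8 T cells the level in cells with at least 3 mitosis UMIs over that in cells with 0 had a median of 2.36 over the 33 genes, with a range from 1.38 (Rpa2, a subunit of the single-strand binding protein) to 12.7 (Rrm2). In knockout CD8 T cells the median was 3.88 and the range 1.57 (Ung) to 31.1 (Pclaf). Pclaf and Rrm2 were the top pair in CD8 T cells, macrophages and cDC1 of both libraries, with Pclaf ratios of 11.9, 18.6 and 37.2 in the control library. In the same order of classes, Slbp, with control ratios of 1.90, 2.00 and 1.89, and Rfc2, with 1.83, 1.59 and 1.16, were far below Pclaf. In the knockout library the ratios were 1.98, 2.30 and 2.94 for Slbp and 2.18, 1.64 and 1.81 for Rfc2. In the control CD8 T cells with 0 mitosis UMIs Dut was still at 295 CPM, and in the knockout ones at 125 CPM.

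Among thinned CD8 T cells, those with a UMI of Tcf7, a factor of naive and stem-like T cells, were rarely high in replication UMIs: 11.7% (8.54 to 15.4) of 360 cells against 16.9% (8.44 to 29.0) of 59. In cells without such a UMI the shares were 48.1% (45.6 to 50.7) and 64.8% (62.4 to 67.1), so the libraries also differed among cells in which Tcf7 was not detected. Cells with a UMI of Gzmb, the killer protease granzyme B, were high in 50.7% (47.1 to 54.3) of 777 cells against 66.8% (64.2 to 69.4) of 1309. Among cells without Gzmb the shares were 34.6% (31.9 to 37.5) and 51.2% (46.3 to 56.2). The intervals of the libraries were apart in every one of these splits except among cells with Tcf7.

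Of 50 other replication genes, a wider list of the pathway, all 50 reached the limit in CD8 T cells, 6 were called lower and 1 higher, and their median log2 difference was -0.13. The lowest were Rfc5 (-0.74), Orc6 (-0.67) and Rpa3 (-0.65), small subunits of the clamp loader, the origin recognition complex and the single-strand binding protein, and the highest was Mcmbp (0.62), which binds MCM subunits. In macrophages 22 of 38 were lower and 0 higher, among them Top2a, which untangles DNA (-1.56). Of the 29 mitosis and G2 genes, 25 of the 25 that reached the limit were lower in macrophages, 4 of 29 in CD8 T cells and 0 of 19 in NK cells, where 7 were higher. Beside the counts of both lists, 7.44% of all genes tested were called lower and 17.7% higher in CD8 T cells. The shares were 16.9% and 17.7% in macrophages, and 4.6% and 6.85% in NK cells. Mki67, the gene of the proliferation marker Ki67, was at 54.3 and 149 CPM in macrophages (-1.37). In CD8 T cells it was at 384 and 336 CPM (0.19, near the 0.14 of the median gene), unlike the replication sum, and the mitotic kinase Cdk1 was at 82.7 and 157 CPM (-0.88). Mki67 was among the 3 highest of its list there and Cdk1 the lowest. The median of the 29 mitosis and G2 genes in CD8 T cells was -0.27, near the -0.29 of the 33 replication genes. In cDC1 and cDC2 the difference of Mki67 was 0.26, within 1.5-fold, and in NK cells Mki67 was higher (0.97). In the remaining classes it differed by -1.09 (T cells of unresolved subset), 2.30 (B cells, on 102 and 14 UMIs), 0.24 (monocytes) and 0.29 (mature dendritic cells).

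Genes that hold cells back from S phase or push them into it did not move as a block. Ccnd3, a cyclin of G1, was higher in the knockout library in CD8 T cells (456 and 108 CPM, 2.03), macrophages (244 and 40.02 CPM, 2.47), NK cells (0.97) and cDC1 (0.66). The same direction held for Ccnd3 in T cells of unresolved subset (1.98), monocytes (1.91), B cells (1.23), cDC2 (0.87) and mature dendritic cells (0.18, within 1.5-fold). Cdk4, its kinase partner, was lower in CD8 T cells (-0.66), macrophages (-1.16) and cDC1 (-0.91). Cdkn1a, which encodes the inhibitor p21, was at 5.32 and 82.8 CPM in CD8 T cells (-3.09), at 168 and 211 CPM in macrophages (-0.32) and at 81.4 and 30.7 CPM in cDC1 (1.27). Btg2, an antiproliferative gene, was at 362 and 78.3 CPM in macrophages (2.14), and Ccnd1, another G1 cyclin, at 75.5 and 234 CPM (-1.57).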

How the data were processed

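Single-cell RNA was measured in 2 droplet libraries, 1 per group, each from 3 tumours. The deposited values are raw UMI counts per gene and barcode. Per the file headers they come from Cell Ranger 7.2.0. The submitters' processing notes name mm10. Which gene models were counted is not given in the sources used. The libraries held 9130 and 10882 barcodes (knockout, control) and 127186298 and 208936136 UMIs. Barcodes with fewer than 200 genes or 10% or more mitochondrial UMIs were left out (4.67% and 13.5% exceeded the latter), and 635 and 820 barcodes with the highest Scrublet scores (7.30% and 8.71% of those left) were removed as doublets (scanpy 1.11.5). No cell annotation was used; each cell was gated by its own marker scores, with at least 3 markers detected and a margin of 0.1 over rival lists.

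For each class the UMI counts of its cells were added up within a library and expressed as CPM. Differences are log2 of CPM plus 5, for genes of at least 10 CPM in the mean of both libraries, and "higher" or "lower" means past 1.5-fold. With 1 library per group no test across samples exists. Shares of cells were taken after thinning to 3000 UMIs, leaving out shallower cells (19 and 23 CD8 T cells, 60 and 191 macrophages). Intervals are exact Poisson and Clopper-Pearson, at 95%. All 33 genes could be named. Of the other lists, at most the 3 highest and 3 lowest differences in a class were named, and Mki67 in every class. Another gene, counted in the wider replication list, is not reported here by name or value. The genes that split a class by cell state (such as Tcf7, Gzmb, Spp1 and Cd163) and those of G1 named across classes were chosen after values had been seen. The 33 genes and all lists were chosen with earlier results of these data known. Genomic spans come from GENCODE vM21 (GRCm38), in which 32235 of 32285 gene identifiers (99.8%) were found, and promoter windows from RefSeq (GRCm38.p6). The calls were tested on simulated data. Python 3.11.15, numpy 2.4.6, scipy 1.17.1, pandas 2.3.3 and matplotlib 3.10.9 were used.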

Additional observations from a re-analysis of the deposited data

Results flagged for a closer look

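The summed level of the replication genes in NK cells was 1.08 times the control level, above 1, where those of CD8 T cells, macrophages, cDC1 and cDC2 were below 1. The difference between classes was not tested, and the direction of the NK value turned under the choices given in the report.

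The control library held 420 cells gated as melanoma cells, which enter no comparison. Of the 252 deep enough to be thinned, 34.9% (29.0 to 41.2) were high in replication UMIs. The knockout library held 18 such cells, too few for a share.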

How the results depend on the processing

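No paired analysis was possible because each group has 1 library, and for the same reason no library could be left out. Every value here is a difference between 2 libraries. In CD8 T cells, macrophages and cDC1 the summed log2 ratios (-0.37, -1.40 and -0.36 as reported) stayed below 0 under each alternative run, from -0.55 to -0.33 in CD8 T cells and from -1.50 to -0.87 in macrophages. With no doublets removed, 0 NK genes were higher, the NK sum was -0.14 and the cDC2 sum -0.24. With the class of the cluster, the sums were -0.33 (CD8 T), -0.038 (NK), -0.87 (macrophage) and 0.022 (cDC2), cDC2 had 1 gene higher and 0 lower, and the macrophage share differed by -10.3 points. With monocytes and macrophages together, chosen after seeing the data, it was -13.3. With each cell weighted equally, the sums were -0.55 (CD8 T), -0.12 (NK) and -1.24 (macrophage), with 1 NK and 3 cDC2 genes lower. With free RNA subtracted, 4 NK genes were higher and the macrophage sum was -1.50. Scaling by the median ratio gave -0.53 (CD8 T), 0.016 (NK), -0.44 (cDC1) and -0.43 (cDC2), with 1 NK gene lower. Without ribosomal and mitochondrial genes the sums were -0.48 (CD8 T), 0.036 (NK), -1.46 (macrophage), -0.43 (cDC1) and -0.39 (cDC2), with 1 NK and 17 cDC1 genes lower. A pseudocount of 1 CPM gave 2 NK genes higher and 1 lower, and no filter on level 3 higher. After the median of genes of like span was taken off, 4 CD8 T, 3 cDC1 and 3 cDC2 genes were lower and 3 NK genes higher. The share differences were -17.5 (CD8 T), 1.89 (NK) and -8.34 (macrophage) at 1500 UMIs and -27.6 (macrophage) at 6000 UMIs. They were -15.4 (CD8 T), -11.3 (NK) and -21.9 (macrophage) with a limit of 3 UMIs and -10.3 (macrophage) with a limit of 8. The cause of these shifts was not tested. Of the classes with differences, B cells had the fewest UMIs in all (1106390 and 948468). In B cells, monocytes and mature dendritic cells 19, 8 and 17 of the 33 genes reached 10 CPM, so fewer differences are given there.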
